A study of Mus musculus with 6 samples.

Results

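The ribonuclease A family genes of the mouse epididymis were examined in the transcriptomes of WT and Ocln-KO mice. The 8 genes, Rnase1, Rnase4, Ang, Rnase9, Rnase10, Rnase11, Rnase12 and Rnase13, were taken by symbol from the 57127 genes of the count table. All 8 had a row and at least 1 count, and 7 were abundant enough to be tested, Rnase10 being the one left out. WT mice were wild type at Ocln, and Ocln-KO mice were Ocln-/-; both groups were adults of the C57BL/6 strain, and the whole epididymis was taken. Each group had 3 libraries. The knockouts were bred from heterozygous parents, and no driver that would restrict the deletion to 1 cell type is named. The methods speak both of RNA extracted separately and of pooled RNA, so n counts libraries, and p-values measure the spread between libraries.

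Ribonuclease A family proteins are small secreted enzymes that cut RNA, named after the bovine pancreatic enzyme. Canonical members such as Rnase1, Rnase4 and angiogenin (Ang) keep the catalytic residues. Members numbered from Rnase9 to Rnase13 are known as non-canonical relatives that lack the full catalytic set, and several are made mainly in the male tract. The epithelium of the caput, the head region of the epididymis, secretes some of them into the lumen, where they meet maturing sperm. Whole tissue was sequenced, so fewer cells of a type and less RNA per cell cannot be told apart.

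Libraries held between 30646424 and 38870780 counts. Counts were given as CPM, which sets each count against its library's total after scaling with TMM factors; on this scale 3 counts equal between 0.0802 and 0.0942 CPM. Ocln, the targeted gene, had 85.5 ± 6.51 CPM in WT (SD, n = 3), and 15.1, 15.3 and 14.9 CPM in the Ocln-KO libraries. The axis of largest variance in log2 CPM, with 47.2% of the total, placed WT libraries between -52.8 and -37, Ocln-KO replicates 1 and 2 at 17.7 and 29.1, and Ocln-KO replicate 3 farther off at 86.3. Epididymal Crisp1 was abundant in all libraries, from 4440 to 16800 CPM, whereas the neuronal markers Neurod6 and Slc17a7 were at 0 and at no more than 0.469 CPM. Of the other 2 brain markers, Gfap reached at most 0.681 CPM, and Mbp, which is not limited to brain, had 9.75 to 16.7 CPM and was higher in Ocln-KO (adjusted p = 0.0315 by edgeR). The records give epididymis as the tissue, but their extraction note names cortex.

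All 8 genes lie on chromosome 14 (GRCm38). From Rnase10 to Rnase1, 7 of them sit within 139 kb, and Rnase13 lies 775 kb beyond Rnase1. In order along the chromosome, they run Rnase10 (51007751 to 51010758), Rnase9 (51038459 to 51041869), Rnase11 (51049451 to 51050163), Rnase12 (51056698 to 51057661), Rnase4 (51091077 to 51106151), Ang (51091150 to 51102009), Rnase1 (51144998 to 51146785) and Rnase13 (51921362 to 51922773). Rnase10, Rnase4 and Ang are on the plus strand and the others on the minus strand. RefSeq lists 7 tRNA genes in the interval between Rnase12 and Rnase4. Rnase4 and Ang share 5′ exons, 219 bases in all, and a start region; a read in the shared exons could belong to either, and how the authors' counting treated such reads is not stated. The other members share no exon with another gene in GENCODE M21.

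The start regions of the members on which the results turn run from 250 bases before to 50 bases after the RefSeq start, on the gene's strand. These sequences are given because Rnase11 and Rnase12 are neighbours whose counts were both lower in Ocln-KO, and Rnase9 had the highest level. Rnase13 had Ocln-KO libraries that lay far apart, and the last window serves both Rnase4 and Ang. Both strands were searched for 3 motifs, and capitals mark the matches. The first was the androgen receptor half-site, spelled AGAACA. The ETS factor core, spelled GGAAGT, was the next. The TATA box was searched as TATAAA. The windows are Rnase9 chr14:51041818-51042117 (minus strand), Rnase11 chr14:51050114-51050413 (minus strand), Rnase12 chr14:51057193-51057492 (minus strand), Rnase13 chr14:51922724-51923023 (minus strand) and Rnase4 with Ang chr14:51090827-51091126 (plus strand), from RefSeq on GRCm38.p6.
Rnase9: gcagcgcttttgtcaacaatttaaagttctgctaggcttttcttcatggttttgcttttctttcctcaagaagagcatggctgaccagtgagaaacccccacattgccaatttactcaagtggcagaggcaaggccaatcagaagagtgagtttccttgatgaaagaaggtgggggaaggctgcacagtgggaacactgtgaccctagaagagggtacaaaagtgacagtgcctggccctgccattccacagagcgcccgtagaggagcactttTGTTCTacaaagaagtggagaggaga
Rnase11: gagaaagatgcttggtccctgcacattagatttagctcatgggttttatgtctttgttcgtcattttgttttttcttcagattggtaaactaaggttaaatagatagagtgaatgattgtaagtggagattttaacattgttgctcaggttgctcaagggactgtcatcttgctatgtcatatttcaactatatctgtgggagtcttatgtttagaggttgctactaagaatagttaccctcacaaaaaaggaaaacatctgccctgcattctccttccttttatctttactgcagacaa
Rnase12: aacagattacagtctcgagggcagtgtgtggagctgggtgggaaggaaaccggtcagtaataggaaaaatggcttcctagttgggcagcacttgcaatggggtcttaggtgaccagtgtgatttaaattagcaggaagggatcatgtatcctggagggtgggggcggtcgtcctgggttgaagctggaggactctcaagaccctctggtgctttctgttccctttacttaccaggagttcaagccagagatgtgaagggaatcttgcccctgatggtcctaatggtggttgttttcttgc
Rnase13: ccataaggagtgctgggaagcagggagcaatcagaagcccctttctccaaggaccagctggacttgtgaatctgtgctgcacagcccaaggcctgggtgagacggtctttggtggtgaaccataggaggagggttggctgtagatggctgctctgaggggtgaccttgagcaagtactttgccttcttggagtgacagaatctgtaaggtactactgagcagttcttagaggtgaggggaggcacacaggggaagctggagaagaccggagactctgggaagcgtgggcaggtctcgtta
Rnase4 and Ang: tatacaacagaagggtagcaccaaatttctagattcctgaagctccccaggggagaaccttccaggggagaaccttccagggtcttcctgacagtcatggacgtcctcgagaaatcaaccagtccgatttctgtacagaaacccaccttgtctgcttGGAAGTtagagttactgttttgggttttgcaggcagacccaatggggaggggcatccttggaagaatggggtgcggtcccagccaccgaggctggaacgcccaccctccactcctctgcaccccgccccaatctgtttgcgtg

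Of the 32817 windows of 300 bases in the RefSeq table, 19% held the androgen receptor half-site, 23.8% the ETS core and 13.6% TATAAA. The Rnase9 window held the half-site once, 25 bases into the transcript, and the window of Rnase4 and Ang held the ETS core once, 93 bases before the start. The windows of Rnase11, Rnase12 and Rnase13 held none of these motifs. The Rnase12 window lay wholly inside the GENCODE span of the gene, downstream of the GENCODE start at 51057661. The sequence before that start was not searched, so the absence of motifs holds for the RefSeq window only. Among the windows not printed, that of Rnase1 held the ETS core, both windows of Rnase10 held the half-site and the ETS core, and so did a further Rnase4 window at chr14:51095750-51096049 (plus strand). GC content was 36.7% in the Rnase11 window, 51% in that of Rnase12, 48.7% in that of Rnase9 and 55.3% in that of Rnase13.

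No member passed the genotype test. In the edgeR quasi-likelihood test, adjusted by Benjamini-Hochberg over 19691 genes, 0 of the 7 tested members had an adjusted p under 0.05, where 8.95% of all tested genes did (3.91% higher and 5.04% lower). With a fold change over 2 asked for as well, 0 members and 3.19% of all tested genes passed. At an unadjusted p under 0.05 there were 4, Rnase1, Rnase11, Rnase12 and Rnase13. The share of all tested genes at that unadjusted p was not counted, so this number has nothing to be read against. DESeq2 called 2 members, Rnase1 and Rnase12, both lower, where it called 1604 genes higher and 1708 lower of 19691. Rnase1 met the count filter through its WT libraries alone. With 5, 0 and 7 counts in the Ocln-KO libraries, it could enter only by a higher WT level. Its place in these counts therefore supports nothing. limma-voom called 0. The log2 fold changes ran from -2.74 to 1.86 with a median of -0.03, beside a median of 0.01 over all tested genes. Without Ocln-KO replicate 3, the library that stands apart, 1 member passed, Rnase11, where 748 genes were higher and 944 lower of 20370 tested. The log2 fold changes were then -3.37 for Rnase1, -0.40 for Rnase12, -0.13 for Rnase9, 0.20 for Rnase4 and 0.63 for Ang. For 3 of the 7, Rnase1, Rnase11 and Rnase12, all Ocln-KO libraries were below all WT libraries, where 36.3% of all tested genes did not overlap (19.4% with Ocln-KO below). The limit on Rnase1 holds for this count too, which leaves Rnase11 and Rnase12.

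**Figure D1:**
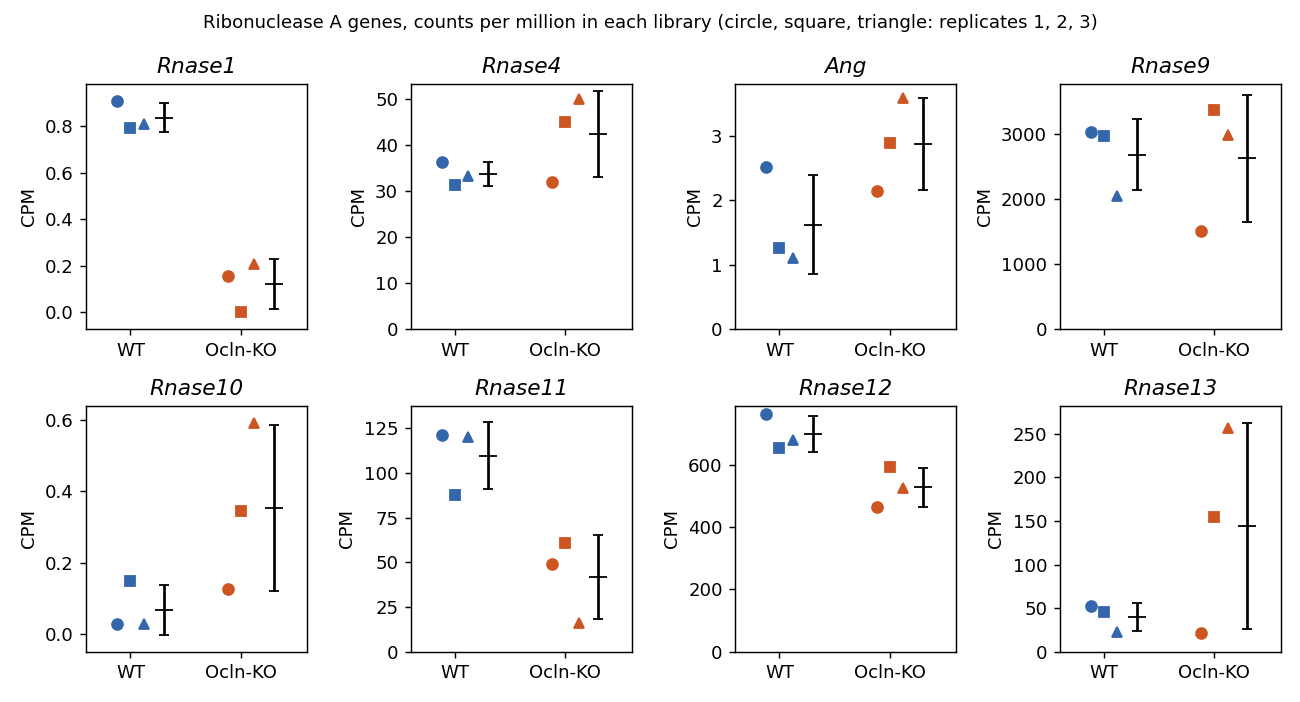
CPM of the 8 genes in each library (vertical axes start at or just under 0), with WT in blue and Ocln-KO in orange, circles, squares and triangles for replicates 1, 2 and 3, and the mean ± SD beside each group. Groups are apart for Rnase1, Rnase11 and Rnase12, and Rnase13 has 1 Ocln-KO library at 21.1 CPM below 2 at 155 and 257 CPM.

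Rnase9 encodes a secreted protein made by the epididymal epithelium and was the most abundant member. It had 3020, 2960 and 2050 CPM in the WT libraries, against 1510, 3370 and 2980 CPM in Ocln-KO. It took 0.259% of all counts in WT and 0.269% in Ocln-KO, and by mean CPM was the 20th gene of the table in WT and the 18th in Ocln-KO. The groups overlapped, with Ocln-KO replicate 1 the lowest library of all and Ocln-KO replicate 2 the highest. The log2 fold change was -0.03 (standard error 0.29, 95% interval -0.71 to 0.65, adjusted p = 0.959 by edgeR), so a difference within that interval was not detectable; with total counts as the scale it was 0.05. Without Ocln-KO replicate 1 it was 0.25 (adjusted p = 0.395 by edgeR), and over 14 alternatives it ran from -0.25 to 0.25.

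Rnase12, a non-canonical member without an assigned enzyme activity, was the second most abundant. Its values were 764, 652 and 678 CPM in the WT libraries, against 464, 591 and 526 CPM in Ocln-KO, and the groups did not overlap, WT being the higher. The difference was small but the spread was narrow, with means of 698 ± 58.4 and 527 ± 63.7 CPM (SD, n = 3 each). The log2 fold change was -0.41 (standard error 0.12, 95% interval -0.68 to -0.13), and the adjusted p of 0.0734 by edgeR missed the threshold. DESeq2 gave an adjusted p of 0.0232, and over all 14 alternatives it ran from 0.0232 to 0.221 with log2 fold changes between -0.49 and -0.32.

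Rnase11, a further non-canonical member and the neighbour of Rnase12, had 121, 87.9 and 120 CPM in the WT libraries, against 49, 60.8 and 15.8 CPM in Ocln-KO. The groups did not overlap, and Ocln-KO replicate 3 was the lowest. The log2 fold change was -1.39 (standard error 0.42, 95% interval -2.36 to -0.42, adjusted p = 0.0773 by edgeR), which stands for a 2.62-fold lower level. Without Ocln-KO replicate 3 the log2 fold change was smaller, -1.0, and the adjusted p was 0.0122 by edgeR. With no filter on low counts it was 0.0237, and over the 14 alternatives it ran from 0.0122 to 0.21. Within each library Rnase11 was also set against Rnase12. Its counts were 15.8%, 13.5% and 17.7% of those of Rnase12 in WT and 10.6%, 10.3% and 3% in Ocln-KO. The ratios of the genotypes did not overlap, for which an exact permutation test of 3 against 3 can give no two-sided p under 0.1.

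Rnase13, also a non-canonical member, had the largest positive log2 fold change among the tested members, and its Ocln-KO libraries lay far apart. WT libraries had 52, 45.1 and 22.3 CPM and Ocln-KO libraries 21.1, 155 and 257 CPM. In TMM-scaled CPM, Ocln-KO replicate 1 was below every WT library, and Ocln-KO replicates 2 and 3 were above them all. The place of replicate 1 rests on the scaling. It had 677 of 30646424 counts, and WT replicate 3 had 827 of 38073990. As a share of all counts, Ocln-KO replicate 1 therefore lay above WT replicate 3. In Ocln-KO the highest library had 12.2 times the CPM of the lowest, against 2.33 times in WT. The log2 fold change was 1.86 (standard error 0.74, 95% interval 0.14 to 3.58, adjusted p = 0.145 by edgeR). Without Ocln-KO replicate 1 it was 2.38 with an adjusted p of 0.0177 by edgeR, and without Ocln-KO replicate 3 it was 1.16 with an adjusted p of 0.289. Over the 14 alternatives the adjusted p ran from 0.0177 to 0.415. Rnase13 counts were 1.72%, 1.52% and 1.09% of those of Rnase9 in WT and 1.4%, 4.61% and 8.61% in Ocln-KO, so that these groups overlapped as well.

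Rnase4 is a broadly expressed ribonuclease that prefers uridine, and Ang encodes angiogenin, which promotes vessel growth and cuts tRNAs under stress. Rnase4 had 36.3, 31.2 and 33.2 CPM in the WT libraries, against 32, 44.9 and 50 CPM in Ocln-KO, and the groups overlapped through Ocln-KO replicate 1. Its log2 fold change was 0.33 (standard error 0.16, 95% interval -0.04 to 0.71, adjusted p = 0.218 by edgeR). Without Ocln-KO replicate 1 it was 0.50 and the adjusted p 0.0402, the one value under 0.05 among 14 alternatives, which reached up to 0.462. Ang was far lower, at 2.51, 1.26 and 1.10 CPM in the WT libraries, against 2.15, 2.89 and 3.58 CPM in Ocln-KO. In counts, these were 94, 43 and 41 in WT and 69, 92 and 121 in Ocln-KO. WT replicate 1 lay above Ocln-KO replicate 1, and the difference, 0.82 on the log2 scale with a standard error of 0.39 (adjusted p = 0.209 by edgeR), passed under none of the 14 alternatives, with adjusted p between 0.14 and 0.45. Ang counts were between 3.32% and 7.17% of those of Rnase4. Both genes carry the limit of their shared exons.

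Rnase1, the pancreatic-type ribonuclease, was close to the limit of detection. WT libraries had 34, 27 and 30 counts and Ocln-KO libraries 5, 0 and 7, or 0.909, 0.791 and 0.808 CPM against 0.156, 0 and 0.207 CPM. Every WT library was above every Ocln-KO library. Its log2 fold change was -2.74 (standard error 0.78, 95% interval -4.54 to -0.94, adjusted p = 0.0658 by edgeR). DESeq2 gave an adjusted p of 0.0128, and over the 13 alternatives that kept the gene it ran from 0.0128 to 0.185. Other exocrine pancreas and liver genes were Prss2 and Apoa1, with 0 counts in every library, Alb, with at most 5 counts, and Cela1, an elastase, which fell from 8.57 to 3.84 mean CPM (adjusted p = 0.0175 by edgeR). Markers of adipocytes, a cell type that can adhere to a dissected epididymis, summed to between 7.16 and 13.1 CPM in WT and between 0.592 and 4.74 CPM in Ocln-KO. All 5 adipocyte markers had negative log2 fold changes and 0 passed by edgeR. Their part in the Rnase1 difference was not tested.

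Rnase10 is known from mice as a protein of the proximal epididymis that sperm need for a normal surface. In these libraries it had 1, 5 and 1 counts in WT and 4, 11 and 20 counts in Ocln-KO, so that it was not in the main test. With no filter on low counts it was tested by edgeR. It was then among the 6 members with an unadjusted p under 0.05, but its adjusted p did not pass. The share of all genes at that unadjusted p was not counted. The groups overlapped, and WT replicates 1 and 3 were under the level of 3 counts. Other genes of the proximal epididymis were also near 0: Lcn9 reached at most 0.107 CPM, Cst11 at most 0.157 CPM and Adam28 at most 0.134 CPM, and Cst12 had no count. Others of the caput list were abundant, with mean WT levels of 7460 CPM for Adam7, 4930 CPM for Lcn5 and 517 CPM for Spag11a. Ros1, the receptor of the lumicrine signal that starts differentiation of the initial segment, was well represented, with 288, 325 and 208 CPM in the WT libraries, against 276, 360 and 420 CPM in Ocln-KO. With the counting settings not stated, reads lost in counting and low expression cannot be told apart for the genes near 0.

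**Figure D2:**
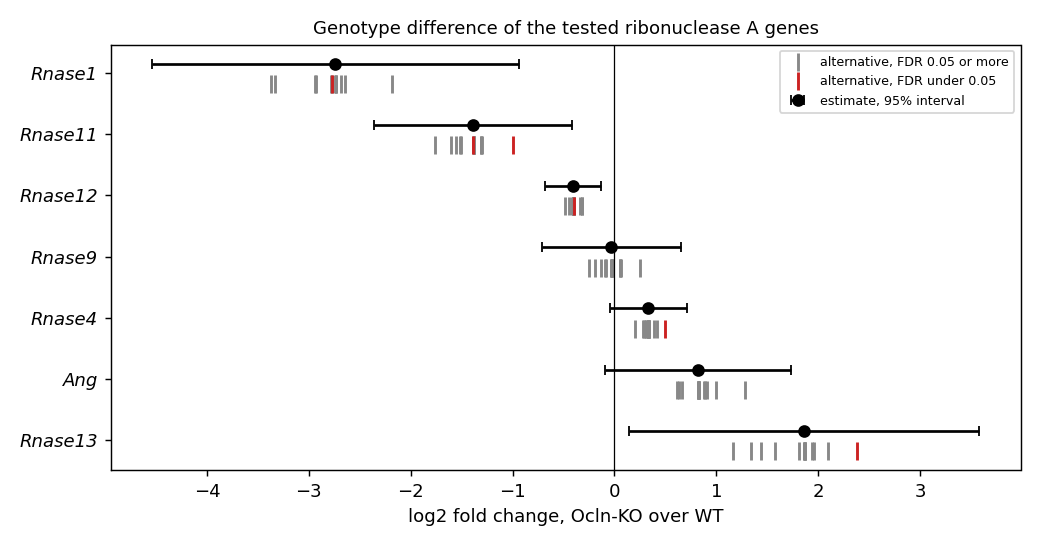
Log2 fold change of Ocln-KO over WT for the 7 tested genes (horizontal axis); black points are the estimates with their 95% intervals, and ticks below them are the 14 alternatives (13 for Rnase1), red where the adjusted p was under 0.05. The red ticks are 1 each for Rnase1, Rnase12, Rnase4 and Rnase13 and 2 for Rnase11, and the ticks of Rnase9 lie on both sides of 0, from -0.25 to 0.25.

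Levels of different members were compared per kilobase of exon (GENCODE M21), as descriptions with no test. In WT they were 2250 ± 457 CPM per kb for Rnase9 and 1040 ± 87.1 CPM per kb for Rnase12 (SD, n = 3 each). Rnase11 followed at 154 ± 26.4, Rnase13 at 28.2 ± 11 and Rnase4 at 20.5 ± 1.57 CPM per kb. Ang had 1.35 ± 0.642, Rnase1 0.843 ± 0.0643 and Rnase10 0.0402 ± 0.0417 CPM per kb. The neighbours Rnase13 and Rnase4, and Ang and Rnase1, differed by less than the larger of their SDs. In Ocln-KO Rnase13 came before Rnase11, at 102 ± 83.8 against 58.7 ± 32.7 CPM per kb, and Rnase10 before Rnase1, at 0.213 ± 0.14 against 0.122 ± 0.109 CPM per kb. Neither of these pairs differed by more than the larger of its SDs within Ocln-KO. Coding length in place of exon length left the WT order as it was and multiplied the levels by between 1.23 and 3.69.

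**Figure D3:**
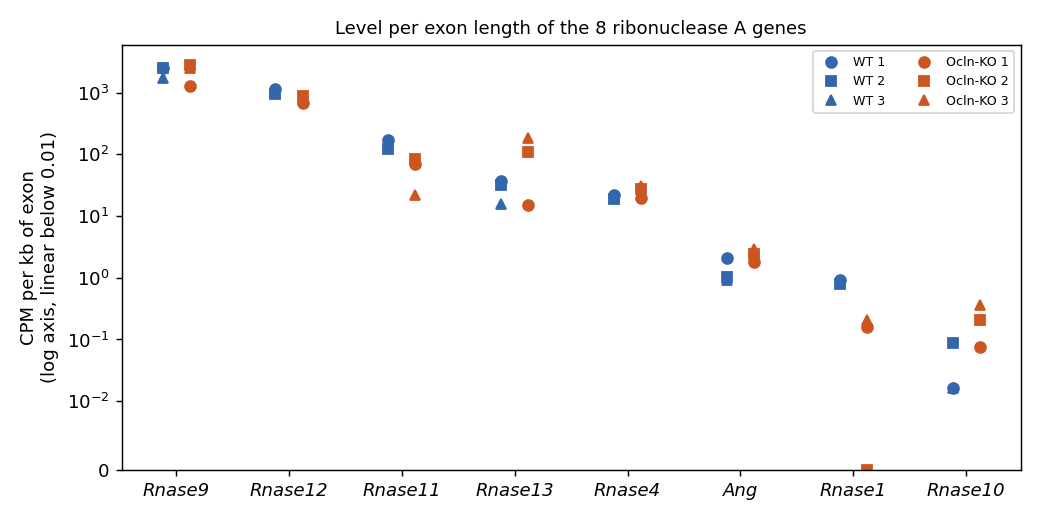
Level of the 8 genes in CPM per kb of exon (vertical axis, logarithmic above 0.01), ordered by the WT mean, with WT in blue and Ocln-KO in orange and 1 symbol for each replicate. The levels span from 2250 CPM per kb for Rnase9 to 0.0402 CPM per kb for Rnase10 in WT.

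The other ribonuclease A genes of the mouse were scarce. Of 12 listed, 6 had a count and 2 were tested. Rnase6, an antimicrobial ribonuclease of myeloid cells, had 16.7 mean CPM in WT and 19.4 in Ocln-KO (log2 fold change 0.22, adjusted p = 0.306 by edgeR). Ear2, an eosinophil-associated ribonuclease, had 0.832 and 1.35 mean CPM (log2 fold change 0.70, adjusted p = 0.338 by edgeR). Ear1, Ear6, Ear10, Ang2, Ang5 and Ang6 had no count. Rnh1, which encodes the cytosolic inhibitor that binds these enzymes, had 122, 128 and 122 CPM in the WT libraries, against 88.7, 112 and 128 CPM in Ocln-KO, and the groups overlapped (log2 fold change -0.18, adjusted p = 0.414 by edgeR). Plxnb2, a receptor for angiogenin, had 363 and 322 mean CPM (log2 fold change -0.17, adjusted p = 0.36 by edgeR). Nsun2 and Trdmt1, whose products methylate tRNAs, had log2 fold changes of -0.09 and 0.28. The ribonuclease genes outside the family, Rnaset2a, Rnaset2b, Dicer1 and Elac2, had log2 fold changes of 0.02, 0.00, 0.17 and -0.01. Of these 8 inhibitor, receptor, methyltransferase and ribonuclease genes, 0 passed by edgeR's adjusted p, where 0 is read against the 8.95% of all genes. Dicer1 was the one among them whose libraries did not overlap.

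Between the outermost members the annotation places 45 other genes, of which 19 had a count and 7 were tested. None of the 7 had an adjusted p under 0.05 by edgeR. Eddm3b, an epididymal secretory gene between Ang and Rnase1, had 585 mean CPM in WT and 484 in Ocln-KO (log2 fold change -0.28, adjusted p = 0.327 by edgeR). Rnase6 was the one further gene of the family among the 7 tested. Ndrg2, next to Rnase13 but for Tppp2, had 28.5 and 49.9 mean CPM (log2 fold change 0.81, unadjusted p = 0.0481, adjusted p = 0.168 by edgeR). Tppp2 itself had a log2 fold change of -0.83 (adjusted p = 0.361 by edgeR).

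Of 23 other genes secreted or expressed in the caput, 17 were tested; their log2 fold changes lay between -0.92 and 8.56, and the median was 0.04. By edgeR's adjusted p, 3 rose and 0 fell. Those that rose were Spag11b and Defb15, of the defensin type, and Gpx5, a secreted glutathione peroxidase. Gpx5 had 54.5, 172 and 26.3 CPM in the WT libraries, against 256, 7260 and 10000 CPM in Ocln-KO (log2 fold change 6.12, adjusted p = 0.0359 by edgeR). Spag11b had 0.294, 0.527 and 0.135 CPM in the WT libraries, against 1.09, 144 and 215 CPM in Ocln-KO (log2 fold change 8.56, adjusted p = 0.0314 by edgeR). Ocln-KO replicate 1 was the lowest Ocln-KO library for each of the 3, though still above WT. For Rnase13 it was below WT in TMM-scaled CPM, but not as a share of all counts. Spink2, Lcn12, Defb20, Lcn5, Lcn6 and Ovch2 of the same list, named after their values were seen, had the order of Rnase13 in TMM-scaled CPM. In each, Ocln-KO replicate 1 was below every WT library and replicates 2 and 3 were above. Their log2 fold changes ran from -0.08 for Ovch2 to 1.74 for Spink2, with 0.04 for Lcn5. Spink2, for 1, had 27.9, 182 and 294 CPM in Ocln-KO and between 40.5 and 65.3 CPM in WT. Over the 3 Ocln-KO libraries, replicate 1 was the lowest for 13 of the 17 caput genes and for 5 of the 7 ribonuclease genes, which were Rnase4, Ang, Rnase9, Rnase12 and Rnase13. It was the lowest for 33.1% of all tested genes. This count was made after the values were seen and carries no test. The summed level of the whole caput list was between 26700 and 31400 CPM in the WT libraries, against 18900, 34000 and 29400 CPM in Ocln-KO replicates 1, 2 and 3. Crisp1, Adam7 and Lcn5 made up most of this sum in WT, with 14900, 7460 and 4930 mean CPM. In Ocln-KO replicate 3 Crisp1 was at 4440 CPM and Gpx5 at 10000 CPM, so the sum does not stand for the single genes.

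**Figure D4:**
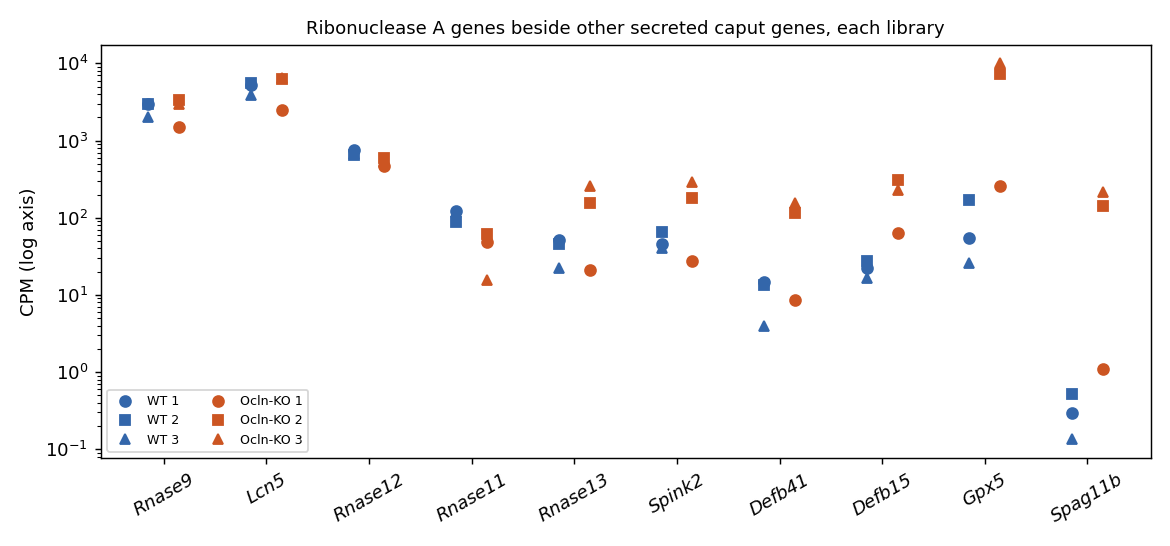
CPM of 4 ribonuclease genes and 6 other caput genes in each library (logarithmic vertical axis), with WT in blue, Ocln-KO in orange and 1 symbol for each replicate. Ocln-KO replicate 1 (orange circle) lies below replicates 2 and 3 in each gene shown apart from Rnase11, where replicate 3 is the lowest at 15.8 CPM. The 6 caput genes are a selection. Among the 17 tested caput genes replicate 1 was the lowest Ocln-KO library for 13 and replicate 3 for 4. Crisp1, not shown, is of the latter kind, with 9960, 9160 and 4440 CPM in Ocln-KO.

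Genes with the closest profile over the 6 libraries were found by the root mean square difference of centred log2 CPM, among 10270 other genes of at least 10 CPM. The measure uses the same libraries as the comparison and carries no test. For Rnase9 they were Ace, the angiotensin-converting enzyme gene (0.0791 on the log2 scale), Gm8430 (0.113) and Lcn5, a caput lipocalin (0.124). For Rnase13 they were Cryba4 (0.269), Prss12 (0.318) and Cldn2, a tight junction claudin gene (0.324), none of them as close as those of Rnase9. For Rnase11 they were Cd52 (0.131), which encodes a surface glycopeptide that epididymal epithelium passes to sperm, 1700011H14Rik (0.134) and Ggta1 (0.136). Cd52 had 2550 and 1080 mean CPM in WT and Ocln-KO. For Rnase12 they were Slc39a11 (0.0357), Fis1 (0.0419) and Gm10221 (0.0426), and for Rnase4 they were Ebp (0.0476), Dse (0.0541) and Tgfb1i1 (0.0634).

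Several cell type lists differed in level beside these values. Crisp1, a secreted principal cell product, had 16800, 12500 and 15400 CPM in the WT libraries, against 9960, 9160 and 4440 CPM in Ocln-KO, without overlap (log2 fold change -0.92, adjusted p = 0.0855 by edgeR). Distal epididymis markers summed to between 5970 and 6650 CPM in WT and to 3780, 3190 and 1980 CPM in Ocln-KO replicates 1, 2 and 3. Gpx3 made up most of this sum, with 6020 mean CPM in WT. It was the 1 of 3 tested that was lower by edgeR's adjusted p. In Ocln-KO replicates 1, 2 and 3, Crisp4 of this list had 71.7, 183 and 197 CPM, and Defb2 had 40.3, 56.3 and 22.8 CPM. Ocln-KO replicate 3 was the lowest library for Crisp1 and for the distal sum, as it was for Rnase11, but not for Crisp4. Clear cell markers summed to between 51.9 and 59.6 CPM in WT and between 29 and 37.5 CPM in Ocln-KO, with 2 of the 3 tested markers lower by edgeR's adjusted p, and none of the 4 was at 0 in every library. Macrophage markers summed to between 120 and 137 CPM in WT and between 142 and 227 CPM in Ocln-KO, where 6 of 6 log2 fold changes were positive and 0 passed. Endothelial markers summed to between 154 and 177 CPM and between 129 and 170 CPM, with 1 of 8, Egfl7, lower by edgeR's adjusted p, at 49.5 and 24.6 mean CPM. Egfl7 went against its list, in which 6 of the 8 log2 fold changes were positive and the median was 0.22. Markers of the initial segment and its signalling summed to between 431 and 565 CPM in WT and between 467 and 699 CPM in Ocln-KO, and 0 of 9 passed. Sperm and spermatid markers summed to between 189 and 253 CPM in WT and to 254, 270 and 64.2 CPM in Ocln-KO replicates 1, 2 and 3. The part of these cell types in the levels of the ribonuclease genes was not tested.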

How the data were processed

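Whole epididymis of adult WT and Ocln-KO mice was profiled by RNA-seq, 3 libraries each. As the methods describe, RNA was depleted of rRNA, made into directional libraries and sequenced as 150 bp paired ends; filtered reads were aligned to GRCm38 with hisat2 (HISAT2 2.0.4 in the submitters' processing notes). The authors deposited raw HTSeq counts for each gene, without normalization; counting mode, strand setting and handling of multiply aligned reads are not given in the sources used here. All columns matched a sample (0 unmatched).

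The genotypes were compared with edgeR 4.0.16 (R 4.3.3), using filterByExpr by genotype (19691 of 32046 genes with a count), TMM factors, estimateDisp, glmQLFit and glmQLFTest; p-values were adjusted by Benjamini-Hochberg over the tested genes, with a threshold of 0.05. Standard errors are the log2 fold change over the root of F, and 95% intervals use the t distribution with the test's degrees of freedom. A level of 3 counts was taken as the limit of detection; totals and limits cover counting error only. DESeq2 1.42.0 and limma 3.58.1 (limma-voom) were alternatives, among 14. Scripts were tested on simulated data. Exon and coding lengths come from GENCODE M21 on GRCm38, whereas the counting used an NCBI annotation, so lengths may differ from those counted.

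The members, gene lists and rules for named genes were chosen with earlier results of these data known: the members and listed genes, tested neighbours, and the 3 closest profiles of members with at least 10 CPM (log2 CPM with a prior count of 2). Lists set beside them were markers of the initial segment, principal, clear and basal cells, endothelium, macrophages, eosinophils and neutrophils, lymphocytes, sperm, adipocytes, smooth muscle, distal epididymis, pancreas with liver, and brain. Protein sequences were not used here, and some listed genes are not reported here.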

Additional observations from a re-analysis of the deposited data

How the results depend on the processing

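Of the 1762 calls over all genes, 770 were higher and 992 lower in Ocln-KO (43.7% higher). DESeq2 gave 1604 and 1708, with 0 and 2 members. Total counts as the scale gave 1175 and 674 (63.5% higher), with 0 members. No filter on low counts gave 942 and 1216 of 32046 genes, with 1 lower member, Rnase11. Leaving out 1 library gave 4 to 782 higher and 19 to 944 lower genes, the fewest without WT replicate 1, and 0 to 2 higher members (Rnase4 and Rnase13 without Ocln-KO replicate 1) and 0 to 1 lower (Rnase11 without Ocln-KO replicate 3). With a replicate block there were 10 higher and 31 lower genes and 0 members either way. Libraries with the same replicate number did not deviate together (correlations -0.05, -0.03 and 0 between genotypes), so the numbers were not taken as pairs; each library correlated best with a library of another number. The log2 fold change of Rnase9, -0.03, reversed with total counts (0.05) and without WT replicate 1 (0.06), WT replicate 2 (0.05) or Ocln-KO replicate 1 (0.25), and leaving out 1 library gave -0.25 to 0.25. The causes were not tested. The other 6 tested members kept their direction under every alternative that gave them a value. At least 10 counts in every library removed Rnase1. Excluding exon stretches shared with Ang, a choice made after the data were seen, moved Rnase4 from 20.5 to 23.7 CPM per kb in WT. Rnase1 and Rnase10 rest on 12 and 35 counts in all Ocln-KO libraries together, and on 91 and 7 in WT.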

Other observations

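Gene groups that were listed but not described above gave these values. Smooth muscle markers summed to between 1080 and 1310 CPM in WT and between 1500 and 1980 CPM in Ocln-KO; Myh11, the smooth muscle myosin heavy chain gene, rose from 494 to 840 mean CPM (adjusted p = 0.0296 by edgeR) and the other 3 had adjusted p above the threshold. Of 4 basal cell markers, Krt14, a keratin gene, rose from 28.5 to 42.6 mean CPM (adjusted p = 0.0276 by edgeR). Krt5 and Trp63 had log2 fold changes of 0.26 and 0.33 and did not pass (adjusted p = 0.186 and 0.106 by edgeR). Itga6 went the other way, from 75.9 to 65.4 mean CPM (log2 fold change -0.21, adjusted p = 0.272 by edgeR). Among the principal cell genes, Aqp9, a water and glycerol channel gene, fell from 258 to 187 mean CPM (adjusted p = 0.028 by edgeR). Of 3 tested distal epididymis genes, Gpx3 fell from 6020 to 2790 mean CPM (adjusted p = 0.037 by edgeR).

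The lymphocyte list had 1 tested gene, Cd3e, with 1.02 and 1.94 mean CPM (adjusted p = 0.123 by edgeR), and 0 of 5 eosinophil and neutrophil genes were tested; Prg2 had no count.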
